A study of Caenorhabditis elegans with 4 samples.

Results

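The regions described are the LIN-61 peaks in the middle and right of the X chromosome of Caenorhabditis elegans, which is divided here into 3 parts of equal length, left, middle and right. They are the peaks of the combined list of the series that lie on X and whose centre is above base 5906289, the end of the left part on build WS220. There are 511 of them among 13662 peaks in all, 188 in the middle part (up to base 11812577) and 323 in the right part. The same placement gave 373 of 11742 nuclear peaks in the list of LIN-61 ChIP replicate 1 and 292 of 9436 in that of replicate 2. Binding was profiled by ChIP-seq (chromatin immunoprecipitation, then sequencing) with an affinity-purified rabbit polyclonal antibody in wild-type worms of strain N2, grown at 20 degrees C and collected as L3 larvae from a population that the labels call mixed male and hermaphrodite. The series has 2 ChIP libraries and 2 input DNA libraries, all of this strain, stage and genotype. Chromatin came from whole ground larvae, so the peaks mix all tissues, and no library of a lin-61 mutant or of an unrelated antibody was analysed here.

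LIN-61 is a chromatin protein built from MBT repeats, a fold that binds methylated histone tails, and it recognises H3K9 methylation, which marks silent chromatin. Worms without it derepress some silenced sequences, and lin-61 is one of the synthetic multivulva genes, which act in vulval development. The worm X chromosome differs from the autosomes: its transcription is lowered in hermaphrodite somatic cells by the condensin-like dosage compensation complex, it is largely silent in the germ line, and its ends are less set apart in repeats and H3K9 methylation than autosome arms. The left end of X carries its meiotic pairing centre, which lies outside the stretch described.

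The lists give a start, an end and a score per peak and no read counts, so the depth of each library is unknown, and a longer list may come from a deeper library. The score is the authors' own value, and its quantity is not named. Whether the replicates were separate cultures is not in the labels. With 2 replicates, an exact two-sided sign-flip test cannot give a p below 0.5, so no difference is tested and values are given for each list. Intervals of shares are 95% Wilson intervals, which cover counting error only and treat neighbouring peaks as independent. No sequence or gene is named at these sites, since the gene table at hand is of another build.

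LIN-61 peaks were sparser in the middle and right of X than in the left part of X or in the centres of the autosomes, in each list. Replicate 1 had 31.6 peaks per Mb in the middle and right of X, against 52.1 in the left part and 58.4 in the autosome centres (the middle one of 3 equal parts of each autosome). Replicate 2 had 24.7, against 38.9 and 42.3. The combined list had 43.3, against 59.8 and 73.3, and the autosome arms held 196. Relative to the autosome centres this was 0.54 times the density in replicate 1 and 0.58 times in replicate 2 (mean 0.56 ± 0.031, SD, n = 2). The combined list gave 0.59. Relative to the left part of X it was 0.61 and 0.63 times (mean 0.62 ± 0.021, SD, n = 2), and 0.72 times with the combined list. That second ratio rested largely on the first Mb of the chromosome: with the leftmost 1 Mb left out of the left part, it was 0.88 in replicate 1, 0.99 in replicate 2 and 0.94 in the combined list. As an average, the middle and right of X were thus close in peak density to what remained of the left part. That average joins unlike parts, with 31.8 peaks per Mb in the middle part and 54.7 in the right part by the combined list. Only the left part was shortened. The region kept its own dense windows of 1 Mb, from 15000001 to 16000000 with 76 combined peaks and from 16000001 to 17000000 with 74. The covered share of the sequence was 1.42% by replicate 1, 1.04% by replicate 2 and 1.88% by the combined list.

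The right part carried more peaks than the middle part. Replicate 1 had 38.8 peaks per Mb in the right part and 24.4 in the middle part, and replicate 2 had 30.3 and 19.1. The right part thus had 1.59 times the density of the middle part in replicate 1 and 1.58 times in replicate 2 (mean 1.59 ± 0.0044, SD, n = 2). The combined list gave 1.72 times, where 54.7 peaks per Mb stood against 31.8. Sequence covered by peaks differed in the same direction, with 1.70% against 1.15% in replicate 1, 1.35% against 0.74% in replicate 2 and 2.31% against 1.45% in the combined list.

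**Figure D1:**
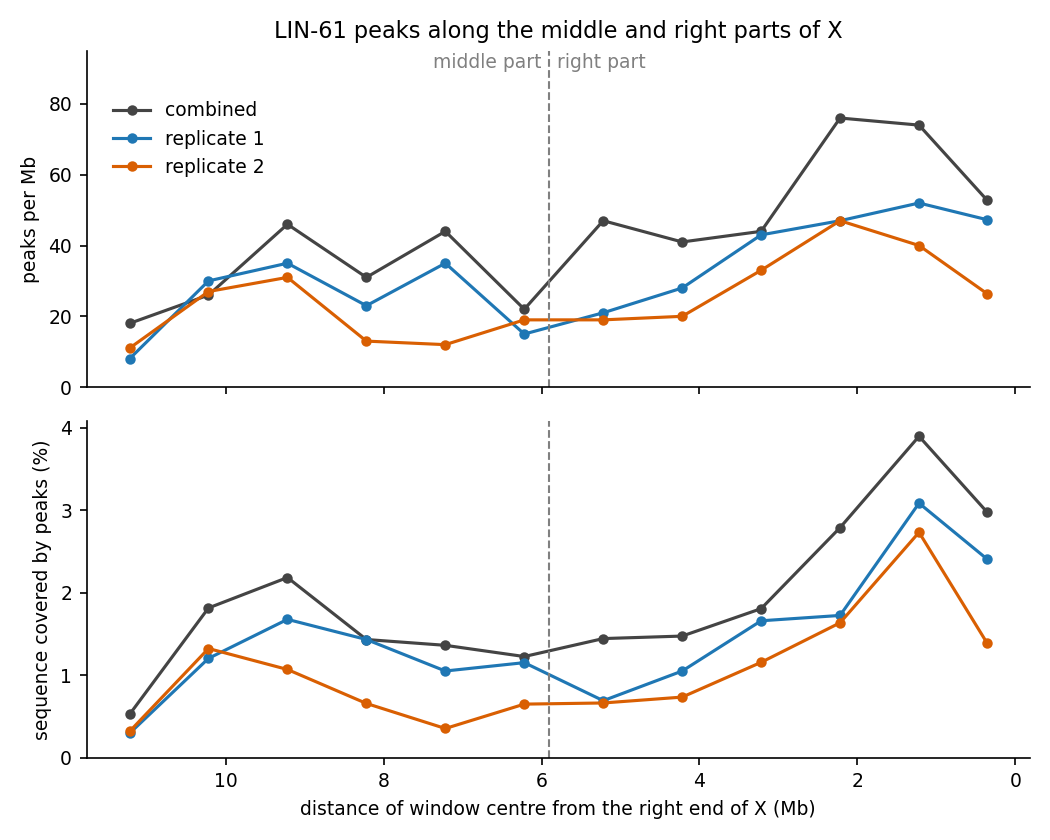
Peaks per Mb (top) and percent of sequence covered by peaks (bottom) in windows of 1 Mb, plotted by the distance of the window centre from the right end of X in Mb; the last window is shorter. Points are the combined list and the lists of replicates 1 and 2, and the dashed line is the border of the middle and right parts. Covered sequence peaked in the window next to the last in all 3 lists, at 3.90% in the combined list. That window holds the widest peak of the region, of 14764 bp, on which its lead rests.

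The profile along the chromosome was highest close to the right end in both replicates, and fell in the last, shorter window. The window from 16000001 to 17000000 had the highest covered share in every list, 3.09% in replicate 1, 2.73% in replicate 2 and 3.90% in the combined list. In the same order, the next highest windows had 2.41%, 1.64% and 2.98%. The lead rested on 1 site, the combined peak of 14764 bp at 16929576 to 16944339, which is longer than the lead in each list. The window from 6000001 to 7000000 had the lowest, 0.30%, 0.32% and 0.53%. By peak number the 2 windows from 15000001 to 17000000 led, with 76 and 74 combined peaks, 47 and 52 in replicate 1 and 47 and 40 in replicate 2. By peak number, the replicates parted most in the window from 10000001 to 11000000, where replicate 1 placed 35 peaks over 1.05% of the sequence and replicate 2 placed 12 over 0.36%.

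Peaks of the middle part were fewer than those of the right part but more often had a close neighbour. In replicate 1, 63.9% of middle-part peaks lay within 1 kb of another peak, against 41.9% in the right part. The shares were 48.7% and 36.9% in replicate 2 and 51.1% and 38.1% in the combined list. All were below the shares over the whole lists, 68.9% in replicate 1, 63.9% in replicate 2 and 68.9% in the combined list. Autosome centres had 57.4%, 50.0% and 58.7% in the same order, so the middle part was above them in replicate 1 only. Of 59 windows of 100 kb in the middle part, 13 held no combined peak, 23 none of replicate 1 and 22 none of replicate 2. Of the 60 windows in the right part, 1 held no combined peak, 4 none of replicate 1 and 6 none of replicate 2. A part with more peaks leaves fewer windows empty, so these counts do not measure evenness alone. The most crowded window held 14 combined peaks in the middle part and 22 in the right part. Wide peaks did not divide the same way in all lists. Of those of 2 kb or more, the middle part held 9 of 14 by the combined list. It held 5 of 9 by replicate 1 and 2 of 6 by replicate 2. Of all peaks it held 188 of 511, 144 of 373 and 113 of 292 in the same order. In the combined list 4.79% of middle-part and 1.55% of right-part peaks were that wide, against 4.57% over the whole list.

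**Figure D2:**
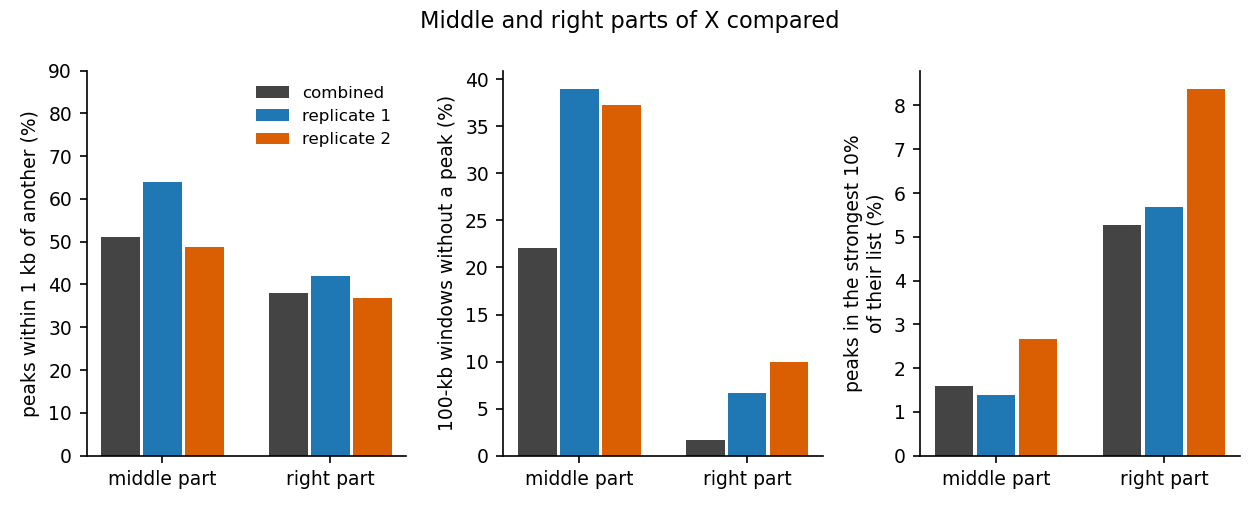
Bars give, for the middle and right parts of X in each list, the percent of peaks within 1 kb of another peak (left), the percent of 100-kb windows without a peak (centre) and the percent of peaks in the strongest 10% of their list by score (right). The first 2 measures are higher in the middle part and the last is higher in the right part in all 3 lists.

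Long stretches of the middle part had no peak. In the combined list the median distance between neighbouring peaks was 7870.5 bp, and 22 of 510 distances exceeded 100 kb. The longest was 321 kb, from 11094263 to 11414889, where each replicate list had 1 peak of its own. The next was 278 kb, from 6362499 to 6640687, and none of the 3 lists had a peak there. The stretch from 10821373 to 11093945 (273 kb) held no combined or replicate 1 peak and 1 of replicate 2. Those from 12669963 to 12876120 (206 kb, in the right part) and from 7595750 to 7757547 (162 kb) were empty in all lists. Single peaks could be isolated too: 20 of the 511 peaks stood over 50 kb from any other combined peak, 11 of them in the middle part. Of the 20, 7 had both replicates, where the share over all 511 peaks was 32.1%. Isolated peaks were not counted over the whole list, so their number has no background here.

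Peaks of the middle and right of X were narrow. Their median width was 249 bp in replicate 1, 256.5 bp in replicate 2 and 242 bp (quartiles 184 and 390) in the combined list. In the same order, autosome centres had medians of 279, 275 and 287 bp, and the left part of X had 308.5, 274 and 292 bp. The members' median score in the combined list was 6.71, which is also the median of the autosome centres, against 7.83 in the left part of X and 8.97 in the autosome arms. The middle part had a median score of 6.03 and the right part 7.08 in the combined list, 5.99 and 6.60 in replicate 1, and 5.72 and 6.69 in replicate 2. Middle and right differed more in their strong peaks than in their medians. In the combined list 17 of 323 right-part peaks (5.26%) and 3 of 188 middle-part peaks (1.60%) were in the strongest 10% of the whole list. In replicate 1 the counts were 13 and 2, and in replicate 2 they were 15 and 3.

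The peaks were supported by the replicates less often than the combined list as a whole. Of the 511 peaks, 164 had an overlap of at least 1 bp with both replicates (32.1%, interval 28.2 to 36.3), against a background of 45.3% over all combined peaks. A further 130 (25.4%, 21.9 to 29.4) overlapped replicate 1 only and 71 (13.9%, 11.2 to 17.2) replicate 2 only, against 26.5% and 7.86% over the whole list. The remaining 146 (28.6%, 24.8 to 32.6) overlapped neither, against 20.3%. Autosome centres, with 36.4% in both, lay between. The share in both was 29.3% in the middle part and 33.7% in the right part, with overlapping intervals.

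Support followed the score. The combined list was divided by score into 4 equal parts. Among the 69 members in the strongest of these, 66 had both replicates (95.7%, interval 88.0 to 98.5), and the share over all combined peaks of that score class was 98.7%. In the next class down it was 60.9% (52.3 to 69.0), against 67.1%. It was 11.4% (7.33 to 17.3) in the one below, against 14.2%, and 1.28% (0.35 to 4.55) in the weakest, against 1.32%. Within a score class, the members were therefore close to the rest of the list, though below it each time. They differed in how they filled the classes: 13.5% of them were in the strongest one, against 22.7% of the peaks in the left part of X and 16.4% of those in autosome centres.

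**Figure D3:**
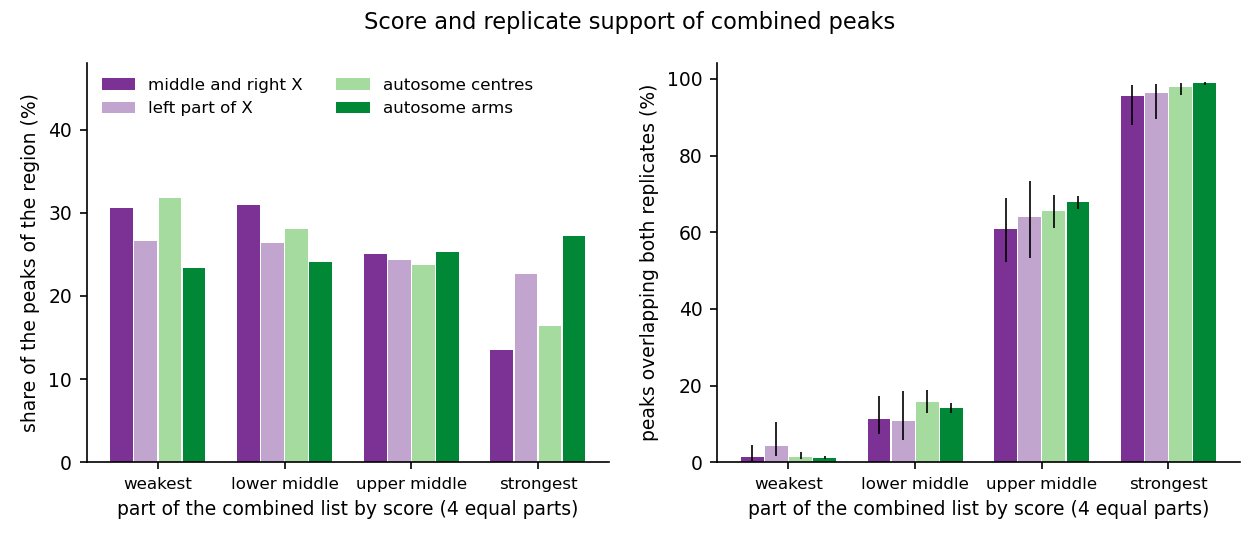
Combined peaks of the middle and right X, the left part of X, the autosome centres and the autosome arms, divided into 4 equal score classes of the whole list. Left, the percent of each group's peaks that fall in a class; right, the percent in each class that overlap a peak of both replicates, with 95% Wilson intervals. The middle and right X have the smallest share in the strongest class, 13.5%, while support within that class is above 95% in every group.

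Seen from the replicate lists, 186 of 373 replicate 1 peaks in the region had a partner in replicate 2 (49.9%, interval 44.8 to 54.9), against a background of 59.1% for the whole list. The left part of X (51.3%) and the autosome centres (51.2%) were within that interval. In replicate 2, 194 of 292 had a partner in replicate 1 (66.4%, 60.8 to 71.6), against 85.0% for the whole list, 75.6% in autosome centres and 79.6% in the left part of X. The median score of partnered peaks was 8.55 in replicate 1 and 7.68 in replicate 2, and that of unpartnered peaks 4.8 and 4.87. Replicate peaks were also missing from the combined list more often than in the lists as a whole: 57 of the 373 (15.3%) in replicate 1, against 7.43% of that list but 17.2% in the left part of X, and 22 of the 292 (7.53%) in replicate 2, against 1.66%. Over the 119 windows of 100 kb, the covered share of the replicates was correlated (Spearman's rho 0.76, Pearson's r 0.88), a description over windows that share the same libraries.

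The strongest sites were few. Of the 10 highest-scoring peaks with both replicates, 8 lay in the right part, which held 109 of all 164 peaks with both. The count of 8 is thus not far from the share of that part. First by score, with 123.28, stood a 600-bp peak at 14312497 to 14313096, which ranked 48 of 13662 in the combined list. Its replicate 1 peak scored 146.95 (rank 61 of 11742) and its replicate 2 peak 88.05 (rank 53 of 9436), so that it stood about equally high in all lists. Second was a middle-part peak of 2050 bp at 9007156 to 9009205 with a score of 107.95, and replicate scores of 128.1 (rank 107) and 47.97 (rank 324). A peak of 1926 bp at 16100178 to 16102103 scored 105.52, with 135.85 (rank 85) and 58.52 (rank 197) in the replicates. These 3 were the members in the strongest 1% of the combined list. Below them came 12520359 to 12522218 (score 93.33), the widest peak, described next, 14744380 to 14744737 (82.23), 16850941 to 16852263 (79.06), 14723402 to 14724848 (66.19), 17056284 to 17057258 (65.33) and 6091983 to 6092272 (58.13). The strongest peak that neither replicate list held was at 10298909 to 10299205, with a score of 11.54 and a rank of 5280.

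The widest peak spanned 14764 bp at 16929576 to 16944339, 0.78 Mb from the right end of X, and scored 91.08. It alone made up 6.64% of the covered length of the 511 peaks. In replicate 1 it was a single peak of 14707 bp with a score of 182.46, rank 15 of 11742, the highest score of that list in the region. In replicate 2 the same stretch was held by 3 adjoining peaks of 527, 13427 and 585 bp, with scores of 31.37, 56.51 and 10.2. Both replicates covered over 98% of it, 99.6% in replicate 1 and 98.2% in replicate 2.

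**Figure D4:**
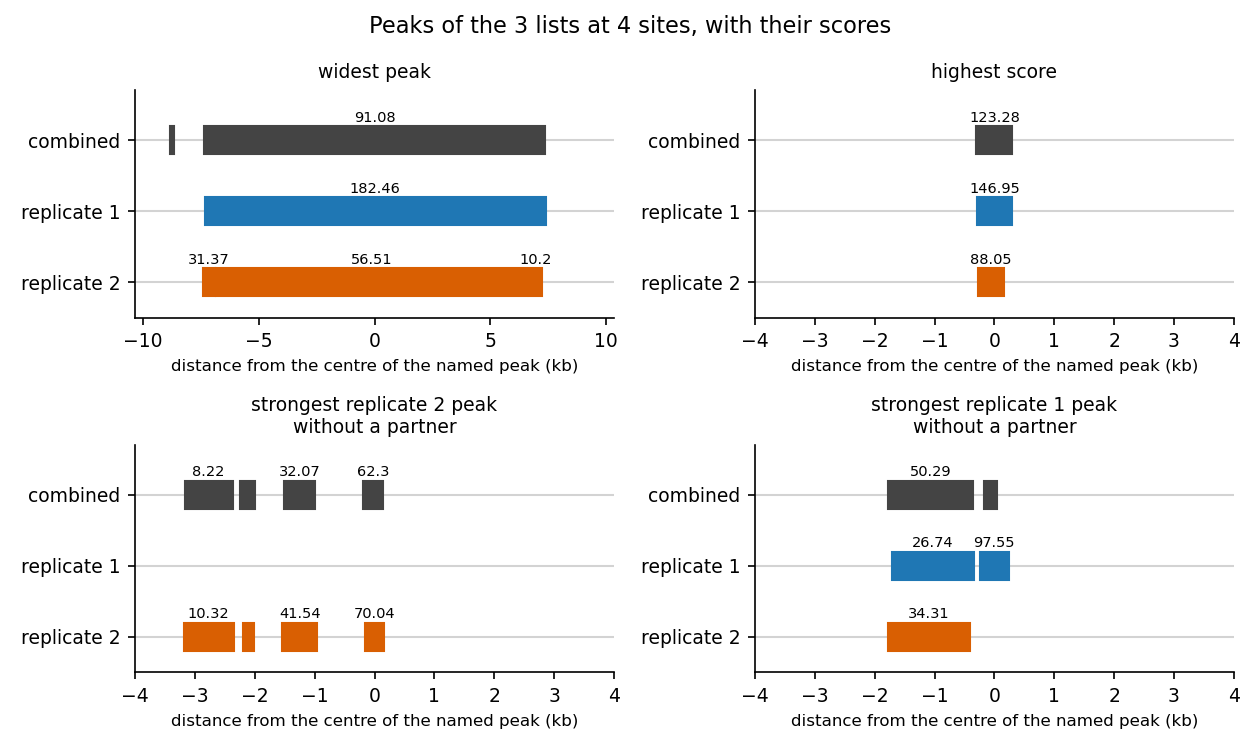
Peaks of the combined list and of replicates 1 and 2 as boxes, with the score printed above each peak over 300 bp, by distance in kb from the centre of the named peak. The widest peak and the highest-scoring peak have matching boxes in all lists, while the strongest unpartnered peak of replicate 2 (score 70.04) and of replicate 1 (97.55) have no box in the other replicate.

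No other peak came near this width. The next widest were a pair in the middle part, 7357294 to 7361340 (4047 bp, score 11.52) and 7353902 to 7357241 (3340 bp, score 14.98), only 52 bp apart. They formed most of a tract of 9932 bp, from 7351409 to 7361340 (named after its values were seen), which replicate 1 covered to 67.6% with 14 peaks and replicate 2 to 85.7% with 11. Its best replicate peaks scored 8.48 and 9.63. Most of its peaks scored below the medians of their lists (7.89 and 7.68), down to 1.58 in replicate 1 and 2.95 in replicate 2. A second tract of the middle part, likewise named after its values were seen, ran from 11471741 to 11480734 (8994 bp). It held 8 combined peaks and was covered to 81.3% by 3 peaks of replicate 1 and to 46.0% by 8 of replicate 2. Near the right end, a peak of 3855 bp at 17627710 to 17631564 scored 46.79 and lay 0.089 Mb from the last base. The remaining peaks among the 10 widest were 2192 to 3382 bp wide, and all 14 peaks of 2 kb or more overlapped both replicates, as did 615 of 625 such peaks (98.4%) in the whole combined list. A peak of 1997 bp at 9071756 to 9073752, just under that width and also named after its values were seen, had replicate 1 only. Of the covered length, the 10 widest held 23.3% in replicate 1, 26.2% in replicate 2 and 18.8% by the combined list. In the left part of X the 10 widest held 19.0%, 22.2% and 20.8% in the same order. Such a share also depends on how many peaks a part has: it was 6.21% in the autosome centres, with 2017 combined peaks.

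Wide peaks also set most of the windows with the most covered sequence by the combined list. In the right part these were 16900001 to 17000000, covered to 15.4% by the combined list, 14.7% by replicate 1 and 14.8% by replicate 2, then 17600001 to 17700000 (9.54%, 7.09% and 5.01%) and 15300001 to 15400000 (8.48%, 5.07% and 4.77%). The last owed its place to number, with 22 combined peaks, more than any other window of the region. In replicate 1 another right-part window, 14300001 to 14400000, was covered more than this one, to 5.32%. In the middle part they were 7300001 to 7400000 (11.6%, 7.98% and 9.72%), 8000001 to 8100000 (9.73%, 9.69% and 4.89%) and 11400001 to 11500000 (9.17%, 8.19% and 4.81%).

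Over the 164 peaks with both, the best replicate scores were correlated at a Spearman's rho of 0.57 and a Pearson's r of 0.69. In the left part of X, over 146 peaks, rho was 0.73 and r 0.67. In autosome centres, over 735 peaks, they were 0.70 and 0.74, and in autosome arms, over 5149, they were 0.74 and 0.82. The region was thus the lowest of these by rho but not by r. These are descriptions over peaks of the same 2 libraries, and the difference was not tested.

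**Figure D5:**
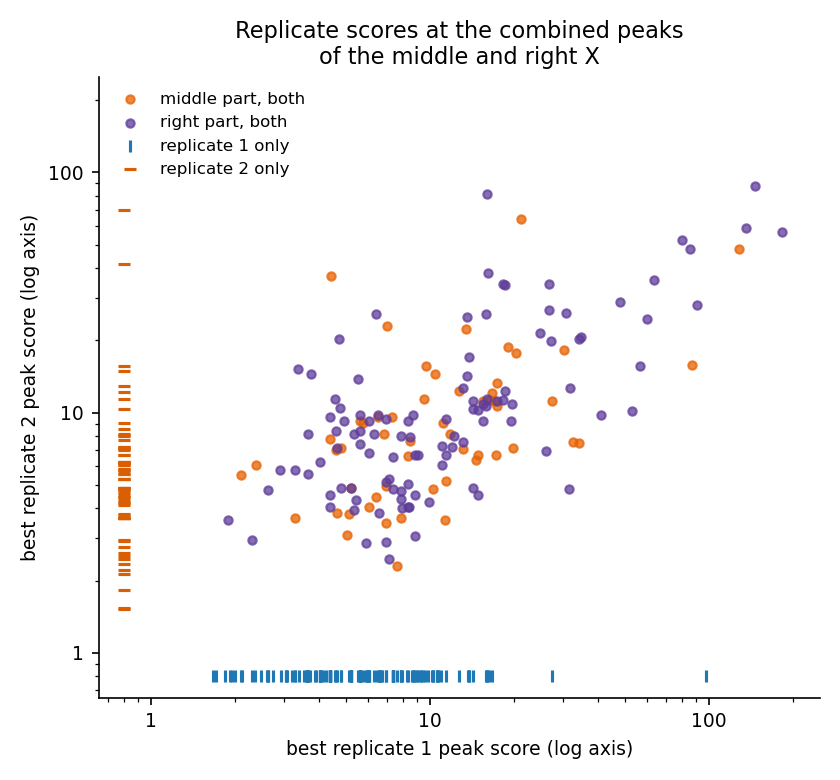
Score of the best overlapping replicate 2 peak against that of the best replicate 1 peak for each combined peak of the middle and right X, both on log axes. Dots are the 164 peaks with both replicates, coloured by part, and ticks along the axes are the 130 peaks with replicate 1 only and the 71 with replicate 2 only; one of the latter reaches 70.04.

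Several shared peaks stood far higher in 1 replicate than in the other; they are named here after their values were seen. At 14744380 to 14744737 the replicate 2 peak scored 81.11 (rank 74 of 9436) and the replicate 1 peak 16.1 (rank 3031 of 11742). At 6091983 to 6092272 the scores were 63.84 (rank 153) in replicate 2 and 21.21 (rank 2286) in replicate 1. At 7068405 to 7068639 they were 36.94 (rank 590) and 4.44 (rank 8909). These 3 combined peaks were between 235 and 358 bp wide. The opposite order was seen at 9604803 to 9607776, a peak of 2974 bp with 86.83 (rank 304) in replicate 1 and 15.79 (rank 2104) in replicate 2. It was also seen at 15481954 to 15484122, a peak of 2169 bp with 53.28 (rank 762) and 10.18 (rank 3503). Narrow peaks showed it too, with 31.56 against 4.83 at 15634976 to 15635424 (449 bp) and 34.18 against 7.46 at 11093946 to 11094262 (317 bp).

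At 2 sites, also named after their values were seen, a strong peak had no partner at all. In replicate 2, a run of 4 peaks between 12653547 and 12656899 included scores of 70.04 (rank 121) and 41.54 (rank 457), and replicate 1 had no peak in it. The combined list kept 4 peaks there, with scores up to 62.3, the highest score of any combined peak of the genome that overlapped replicate 2 only. In replicate 1, a peak of 481 bp at 17311361 to 17311841 scored 97.55 (rank 238), the highest score of any replicate 1 peak without a partner. The combined list had only a peak of 207 bp with a score of 2.12 (rank 13361) over it, although the neighbouring site at 17309831 to 17311248 was present in all 3 lists with scores of 50.29, 26.74 and 34.31. In the strongest 10% of replicate 2, 2 of the 18 peaks in the region had no partner, both in that run, against 5 of 945 in the whole list. In the strongest 10% of replicate 1 it was 1 of 15, against 5 of 1187.

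Some dense blocks belonged to replicate 1 alone. Replicate peaks within 1 kb of each other were joined into blocks, by a rule chosen after these sites were noticed, and blocks with at least 2 kb of peak were kept. Of 16 such blocks of replicate 1 in the middle and right of X, 5 (31.3%) had no base covered by replicate 2. The counts were 4 of 24 in the left part of X, 6 of 79 in autosome centres and 18 of 695 in autosome arms. Replicate 2 had 10 such blocks in the middle and right of X, and none of them lacked replicate 1. This was so in most parts, with 0 of 46 in autosome centres, 0 of 437 in autosome arms and 1 of 9 in the left part of X. The contrast of the replicates in the region depends on the limit: the replicate 2 run at 12653547 to 12656899, with 1934 bp of peak, falls just short of it. With a limit of 1.5 kb, also chosen after the data were seen, 6 of 23 replicate 1 blocks of the region had no base in replicate 2. Against this stood 5 of 32 in the left part of X, 18 of 130 in autosome centres and 30 of 938 in autosome arms. For replicate 2 blocks with no base in replicate 1, the region had 1 of 14 and the left part of X 1 of 19. Autosome centres had 1 of 76 and autosome arms 4 of 627. The 5 replicate 1 blocks of the region at the 2-kb limit were 9070667 to 9074894 (3 peaks), 9185001 to 9189015 (7), 10087899 to 10094474 (10), 14384743 to 14389702 (8) and 17231223 to 17233711 (4). The combined list covered them very unequally: 80.7% of the first and 76.9% of the last, but 22.7% of the one with 10 peaks, 4.93% of the one with 7 and none of the one with 8. These shares are of the whole block, gaps between peaks included. Replicate 1 itself covered 4058 of 4228 bp of the first block, and 3143 of 6576 bp of the one with 10 peaks. The combined list covered 3413 and 1494 bp of these 2. Their best scores ranged from 8.31 to 19.36. Each is the best of several peaks, so it cannot be set against the median of single replicate 1 peaks (7.89). In the block with 10 peaks, all but the best scored 6.75 or less. The part of library depth and of the peak caller's threshold in these blocks was not tested.

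The border that defines the region did not cut through a dense site. The first peak inside it was at 5977980 to 5978215 (236 bp, score 11.99, replicate 1 only), and the last peak outside it was at 5818359 to 5818504 (146 bp, score 3.21, in neither replicate), with 159475 bp between them.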

How the data were processed

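Per the file headers, the authors' lists are on build WormBase WS220 and hold sites found by MACS. Its version and threshold, the control, the aligner and the making of the combined list were not given in the sources used here. For each peak the authors deposited its limits and a score of unnamed quantity, and peaks were ranked by score within a list only. Per the labels' protocols, ground worms were crosslinked for 20 minutes with EGS and 10 more with EGS and formaldehyde. Samples were grouped by title.

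X was taken to end at 17718866, where the rightmost peak of replicate 1 ends. Peaks were placed by their centre, the 2 mitochondrial peaks of replicate 1 were set aside, and coordinates count from 1. Overlap means at least 1 bp. Named regions follow a rule: the 10 highest-scoring members with both replicates, the 10 widest, the strongest with neither, the 5 longest empty stretches, the 3 most covered 100-kb windows of each part, and the peaks at the border; others are marked as chosen after their values were seen. The region, the lists and the measures were chosen with earlier results of these data known. Placement and overlap were tested on simulated data. Alternatives were a stricter overlap, the stronger part of each list, covered length, merged peaks, a shortened left part and each replicate list alone. Python 3.11.15, numpy 2.4.6, pandas 2.3.3, scipy 1.17.1 and matplotlib 3.10.9 were used.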

Additional observations from a re-analysis of the deposited data

How the results depend on the processing

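The lower density in the middle and right X than in autosome centres and the higher density in the right than in the middle part kept their direction under every alternative run, but most moved by more than the small spread between the replicates. The ratio to the left part stayed below 1 but came close to it without the leftmost 1 Mb, at 0.94 by the combined list, 0.88 by replicate 1 and 0.99 by replicate 2. By covered length in place of peak number, the ratio to the left part was 0.60, the ratio to autosome centres 0.52 and the ratio of the right to the middle part 1.59. With peaks within 1 kb merged, these were 0.90, 0.71 and 2.06. With peaks at or above the median score of their list, they were 0.59, 0.57 and 1.86. In the list of each replicate alone, the ranges were 0.61 to 0.63, 0.54 to 0.58 and 1.58 to 1.59.

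The share of members with both replicates, 32.1%, was 25.8% with each replicate covering at least 50% of the peak. Among the 197 members at or above the median score it was 73.1%. With replicate 2 ignored, 57.5% of members overlapped replicate 1, and with replicate 1 ignored, 46.0% overlapped replicate 2. Partner shares of replicate 1 and replicate 2 peaks were 35.7% and 45.6% with 50% reciprocal overlap, and 71.6% and 86.6% in the stronger part of each list. A stricter overlap lowers a share by construction; for the rise with score, the cause was not tested. The difference in median width from autosome centres, -45 bp, was -102.5 bp among combined peaks with both replicates and -30 to -18.5 bp in the replicate lists. The difference in median score was 0 in the combined list, -0.82 among peaks with both and -0.47 to 0.12 in the replicate lists, so it has no steady direction. The 10 widest held 24.4% of the covered length after merging and 23.3% to 26.2% in the replicate lists. No paired analysis was possible because only ChIP libraries have lists here, and they form 1 group. Gene and sequence context was not run, for want of a reference of build WS220.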
